A study of Rattus norvegicus with 12 samples.

Results

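The extracellular matrix genes described here are those of collagens, laminins, nidogens, fibronectin (Fn1) and Sparc, together with the integrins that bind them and the enzymes and inhibitors that remodel them (Mmp, Adamts, Timp). Members were chosen by gene name, taking every probe whose name in the scanner files began with one of these family stems. The rule itself uses no measured value, but it was set with earlier results of these data known. The rule found 159 probes for 112 gene names among 41012 probes for 35537 genes or unnamed transcripts on the array. Of these, 74 probes for 57 genes passed the filter on dim spots, against 20630 probes for 17805 genes in all. Vcan (versican), which the rule also lists, was carried by the array under its older symbol Cspg2, so no probe matched it by name.

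The samples were F11 cells, a hybrid line made from rat dorsal root ganglion neurons and mouse neuroblastoma cells, so mouse transcripts may reach these rat probes with unequal strength. All cells spent 3 h in low-serum medium (0.5% fetal calf serum), and forskolin at 10 µM was then given for 2, 4, 24 or 48 h, with 3 arrays per time. The reference was F11 cells after the same 3 h without forskolin, hybridised as a common RNA on all 12 arrays. It counts as 1 control sample, its own spread is left out of each test, and no untreated cells of matching age were compared, so time in low serum and forskolin cannot be told apart. Forskolin RNA was labelled with Cy3 (green) and reference RNA with Cy5 (red) throughout. A dye bias of a single gene therefore stays in a comparison with the reference and cancels between times. Each time also had its own place on the slide, so place and time cannot be told apart. The labels number the replicates without saying that they were separate cultures, so p-values measure only the spread between these samples.

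Forskolin activates adenylyl cyclase, which raises cyclic AMP, and cyclic AMP acts through protein kinase A on transcription factors of the CREB family. The matrix is built of collagens and glycoproteins. Laminins, collagen IV, nidogen and collagen XVIII form basement membranes, the sheets on which Schwann cells and regrowing axons sit, and integrins, each an alpha chain paired with a beta chain, carry the contact into the cell. Matrix metalloproteinases and Adamts proteases cut matrix proteins, and Timp proteins block the metalloproteinases.

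Of 43379 non-control spots, 19889 to 21973 per array stood well above background for forskolin RNA and 19504 to 23285 for reference RNA. Median spot intensity was 64.6 to 71.5 for forskolin RNA, whose local background was 47 to 52, and 112.7 to 127.9 for reference RNA, whose local background was 83 to 88, so dim probes have compressed ratios. Of the markers of sensory neurons on the array, 11 of 12 were well above background in the reference on all 12 arrays, as were 6 of 7 sympathetic markers. The fibroblast markers Dcn, Lum, Postn and Fap and the endothelial markers Pecam1 and Tek were above background on 0 of 12 arrays in both channels. The summed intensity of the 12 sensory neuron markers was 126762 to 138694 at 24 h and 158657 to 167084 at 48 h, against 95576 to 105090 in the reference. That of the 7 sympathetic and neuroblastoma markers was 19031 to 21128 at 24 h and 24835 to 26179 at 48 h, against 11738 to 13246 in the reference. That of the 6 endothelial markers was 702 to 706 at 48 h, against 540 to 571 in the reference, with Vwf alone at a log2 ratio of 0.98. At 48 h, the sums of the other lists were 4225 to 4554 for 8 glial markers, 1251 to 1474 for 9 fibroblast markers, which include Col1a1, Col1a2 and Col3a1, and 426 to 456 for 6 leukocyte markers. In the reference these were 4438 to 5326, 1232 to 1327 and 425 to 468. The neuronal and endothelial sums rose with the late changes given below, and their part in those changes was not tested. In RNA from whole cultures, more cells of a type and more RNA per cell cannot be told apart.

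Values below are log2 ratios of forskolin over reference, normalized within each array, so that 1 is a doubling, given as the mean ± SD of 3 arrays. A gene was called where limma's adjusted p (Benjamini-Hochberg over all kept probes) was under 0.05, and the brightest kept probe stood for its gene. At 2 h, 10 of the 57 genes were called (17.5%), against 27.9% of all genes. They were 3 higher and 7 lower, where 9.85% of all genes were higher and 18.0% lower. Without the second 2 h replicate the count was 5, where 17.3% of all genes were called. At 4 h, 29 were called (50.9%), against 49.3% of all genes, with 8 higher and 21 lower, where 19.4% of all genes were higher and 29.9% lower. At 24 h, 37 were called (64.9%), against 52.9% of all genes, with 22 higher and 15 lower, where 24.0% of all genes were higher and 28.9% lower. At 48 h, 35 were called (61.4%), against 56.8% of all genes, with 21 higher and 14 lower, where 26.7% of all genes were higher and 30.1% lower.

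The members thus moved in both directions and about as often as other genes at 4 h. The higher calls made up 38.6% of the members at 24 h and 36.8% at 48 h, against 24.0% and 26.7% of all genes. The median log2 ratio of the members was -0.10 at 4 h and 0.05 at 24 h, against -0.03 and -0.02 over all genes. Each call at the 4 times (10, 29, 37 and 35) had the same sign on its 3 arrays, which being called already makes likely. The share of all called genes with 1 sign was not computed. The largest changes were in a few genes: 12 of the 57 were called at a size of at least 0.5 at 24 h, 9 higher and 3 lower, and 12 were at 48 h, again 9 higher and 3 lower. The share of all genes called at this size was not computed, so these counts are not set against other genes.

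**Figure D1:**
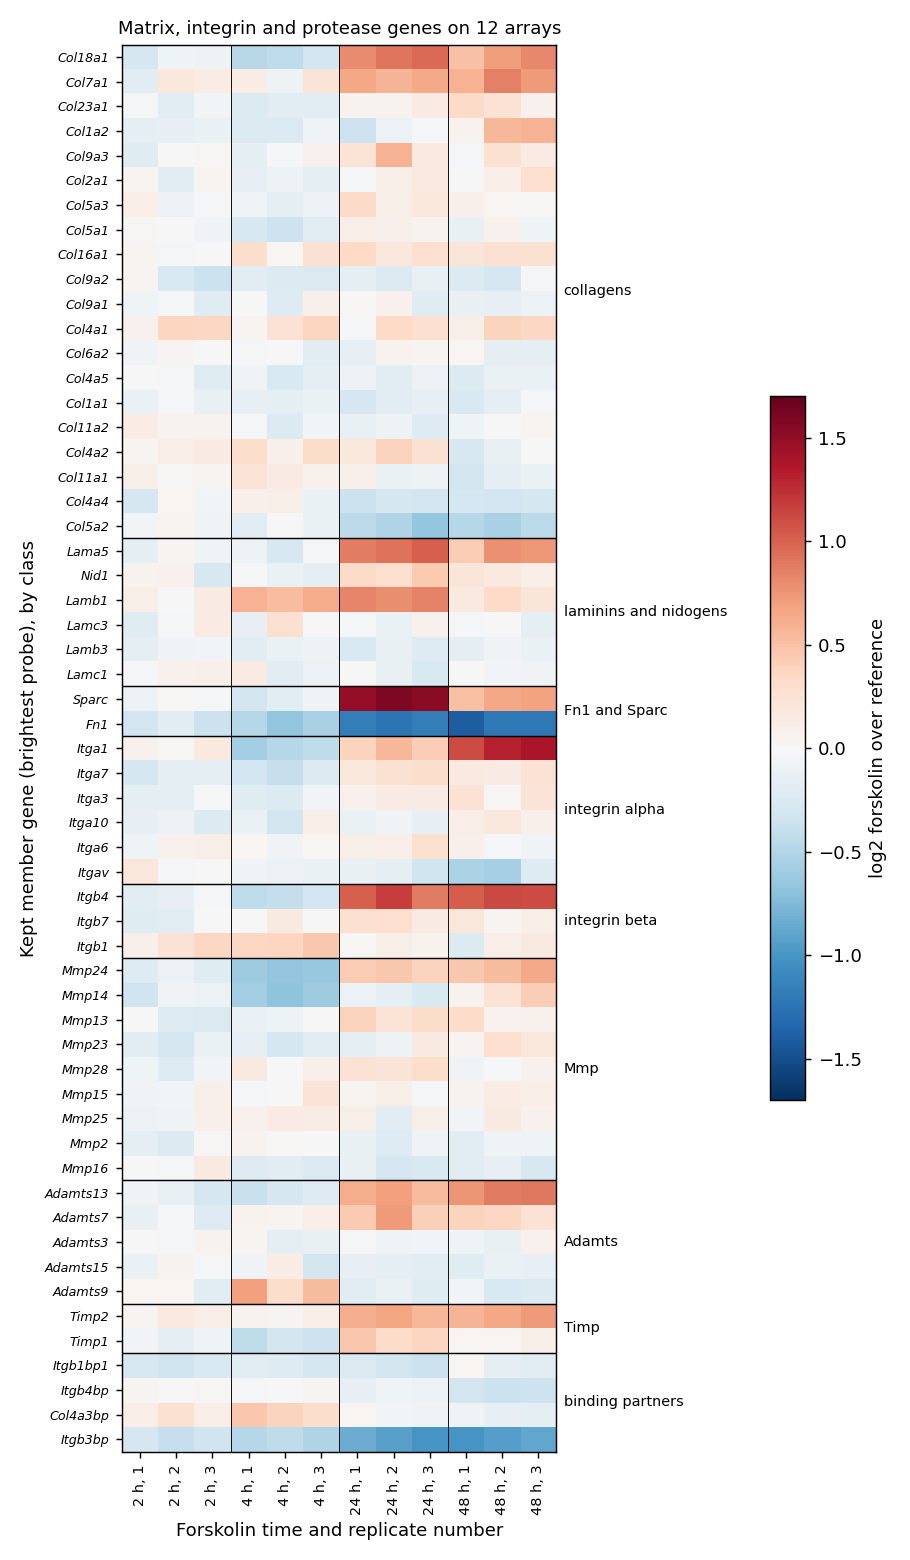
Log2 ratio of forskolin over reference for the 57 kept member genes (rows, by class and then by late minus early difference) on the 12 arrays (columns, by time and replicate number), in colour. Most rows are pale. Sparc, Itgb4, Itga1, Col18a1 and Lama5 are red at 24 and 48 h, and Fn1 and Itgb3bp are blue.

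The comparison between times uses no reference RNA as a control, since the same RNA cancels where its channel reads alike at each time. For Sparc the reference channel read higher at 24 h, as given below, and the effect on its differences between times was not tested. From 2 and 4 h (early) to 24 and 48 h (late), 38 of the 57 genes were called, 27 higher and 11 lower late, or 66.7% against 50.1% of all genes. The higher calls were 47.4% of the members against 26.1% of all genes, and the lower calls were 19.3% against 24.1%. Between 24 and 4 h, 28 were called, 21 higher and 7 lower at 24 h, or 49.1% against 38.4% of all genes, of which 20.8% were higher and 17.6% lower. Fewer were called between 4 and 2 h, where 3 were higher and 8 lower at 4 h. That is 19.3% against 15.2% of all genes, of which 5.40% were higher and 9.82% lower. Between 48 and 24 h, 3 were higher and 6 lower at 48 h, or 15.8% against 14.3% of all genes, of which 7.80% were higher and 6.54% lower.

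The sign of a ratio to the reference depended on how each array was normalized. With each array centred on its median in place of the intensity-dependent loess curve, the median over all genes lay at -0.57, -0.58, -0.45 and -0.46 at 2, 4, 24 and 48 h. The members were then called 0 higher and 40 lower at 2 h, 1 and 41 at 4 h, 6 and 28 at 24 h, and 5 and 38 at 48 h. At 2 h, 77.3% of all genes were called with this centring. The shares of all genes called at 4, 24 and 48 h, and the shares by direction at any time, are not given. These counts are therefore not set against other genes. Relative to that median, 3 of 10, 8 of 29, 8 of 37 and 13 of 35 called members changed sign at the 4 times. The share of all genes that changed sign was not computed. The differences between times kept their sign: 0 of 28 called members changed sign from 4 to 24 h and 0 of 38 from early to late. Fewer members were called in each with median centring (17 and 25), where 18.7% and 29.1% of all genes were called.

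**Figure D2:**
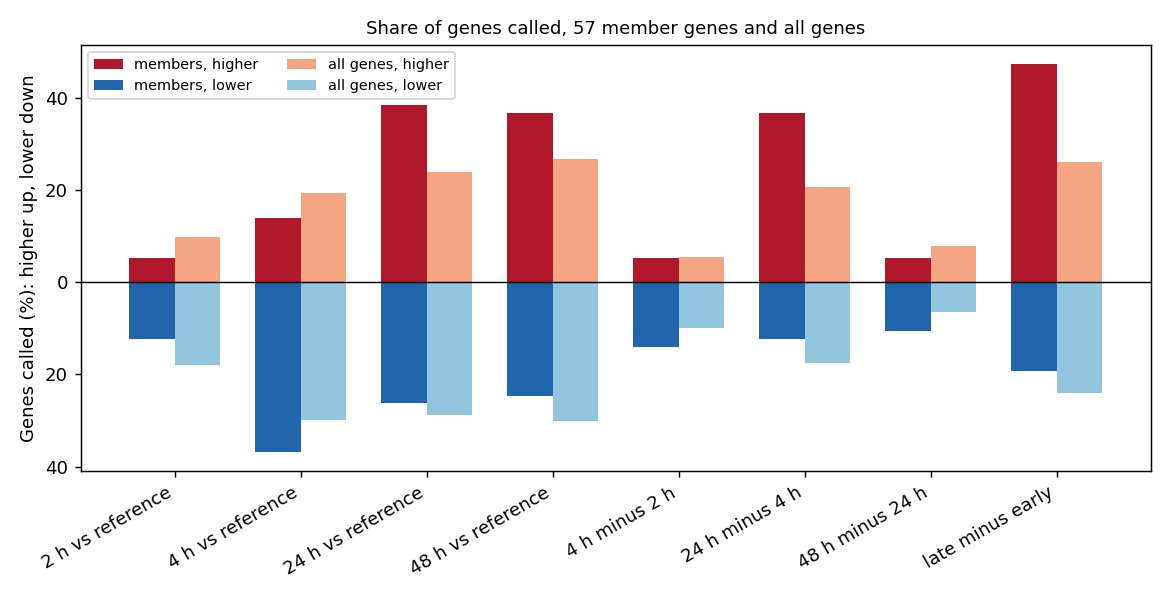
Share of genes called (percent, adjusted p under 0.05) in each of 8 comparisons, higher upward and lower downward, for the 57 member genes (dark bars, left) and all 17805 genes (pale bars, right). Members exceed all genes in the higher direction at 24 h, 48 h, 24 h minus 4 h and late minus early. In the lower direction they do so at 4 h, 4 h minus 2 h and 48 h minus 24 h.

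Sparc, a secreted calcium-binding glycoprotein that binds collagen, had the largest rise of the 57 genes at 24 h. Its ratios were -0.10, 0.02 and -0.02 on the 2 h arrays and -0.32, -0.20 and -0.06 on the 4 h arrays. They were 1.49, 1.59 and 1.54 on the 24 h arrays and 0.51, 0.66 and 0.69 on the 48 h arrays. All 6 late arrays lay above all 6 early arrays, and the 24 h arrays stood clear of the 48 h arrays. The mean was 1.54 ± 0.05 at 24 h (2.91-fold, limma adjusted p = 3.4e-11) and 0.62 ± 0.10 at 48 h (adjusted p = 1.8e-07), and the fall between them was called (-0.93, adjusted p = 2.6e-06). The 48 h rise was not kept with median centring, where Sparc stood at -0.06 relative to the median of all genes, whereas its 24 h rise was. In intensity, Sparc read 9808, 10326 and 10698 in the forskolin channel at 24 h and 3482, 3429 and 3681 in the reference channel of the same arrays. The reference channel read 2105 to 2754 on the other 9 arrays, although it held the same RNA on all of them. The source of the higher Sparc reading in the 24 h reference channel was not tested.

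Fn1 encodes fibronectin, the glycoprotein that links collagens and other matrix proteins to integrins. It fell at every time. The ratios were -0.32, -0.20 and -0.37 at 2 h, -0.49, -0.67 and -0.56 at 4 h, -1.18, -1.24 and -1.17 at 24 h, and -1.41, -1.22 and -1.22 at 48 h. The 24 h and 48 h arrays overlapped each other and lay below all 4 h arrays, which lay below all 2 h arrays. The mean was -1.20 ± 0.04 at 24 h (2.29-fold lower, limma adjusted p = 3.1e-10) and -1.28 ± 0.11 at 48 h (2.43-fold lower, adjusted p = 8.6e-11). In intensity, Fn1 read 303 to 350 in the forskolin channel on the 6 late arrays, against 684 to 808 in the reference channel there.

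**Figure D3:**
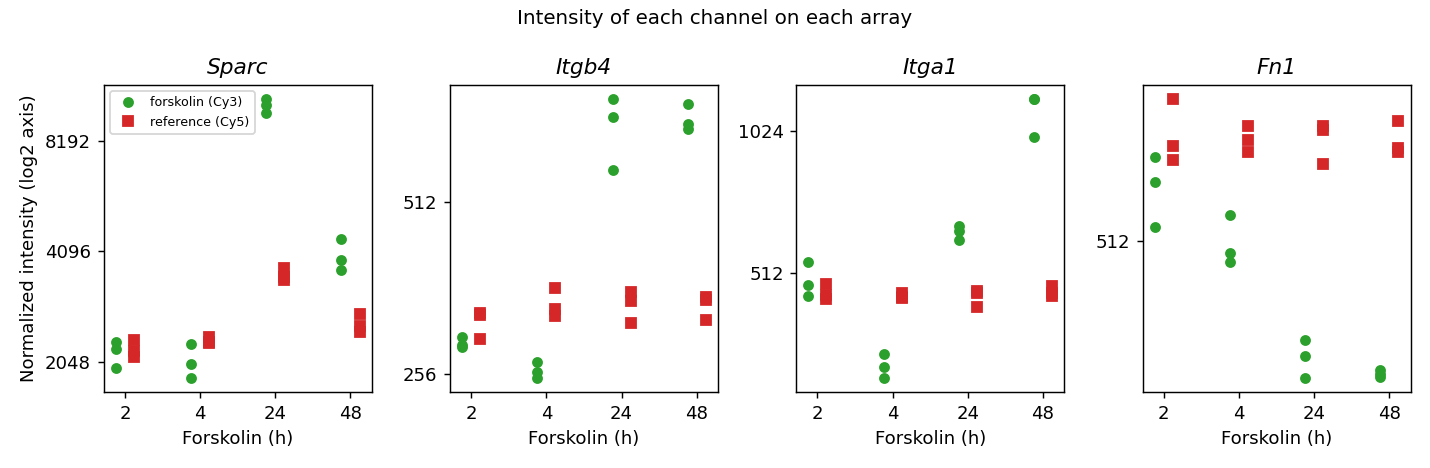
Normalized intensity (log2 axis) of Sparc, Itgb4, Itga1 and Fn1 in the forskolin channel (green circles, left) and the reference channel (red squares, right) on each of the 12 arrays, by hours of forskolin. The forskolin channel lies above the reference at 24 and 48 h for Sparc, Itgb4 and Itga1 and below it for Fn1, and the Sparc reference is brighter at 24 h than at other times.

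A second Fn1 probe, carried on 10 spots, gave a smaller fall, with the same sign late. It averaged -0.44 ± 0.08 at 24 h and -0.45 ± 0.05 at 48 h (adjusted p = 4.1e-06 and 2.2e-06), and 0.01 ± 0.07 at 2 h and -0.07 ± 0.11 at 4 h, where it was not called. The brighter probe lies at chr9:70849298-70849357 and the second probe at chr9:70849878-70850482, both on the minus strand of rn3, the build of the files. The second probe's genomic span is longer than its 60 bases, so that it crosses an exon junction in the transcript. The sizes of the Fn1 changes are thus those of a probe.

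Probes that cross an exon junction carry part of these findings and are shown for that reason, 5′ to 3′ as on the array, with no bases marked. The positions are those of the files in rn3: the Itga1 probe spans chr2:47036126-47040271 (minus strand), the Lamb1 probe chr6:49181266-49183037 (plus strand), and the 2 Lama5 probes chr3:169144214-169144352 and chr3:169140525-169140678 (minus strand).
Fn1, second probe: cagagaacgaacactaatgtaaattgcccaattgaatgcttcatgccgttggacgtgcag
Itga1: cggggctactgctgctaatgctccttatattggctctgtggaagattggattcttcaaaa
Lamb1: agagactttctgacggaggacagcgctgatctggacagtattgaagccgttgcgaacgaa
Lama5, probe of the first span: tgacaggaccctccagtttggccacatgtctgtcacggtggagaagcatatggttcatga
Lama5, probe of the second span: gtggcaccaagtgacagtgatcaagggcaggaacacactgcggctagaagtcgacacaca

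Lama5 encodes the laminin alpha-5 chain of basement membranes. Its brightest probe gave -0.16, 0.05 and -0.08 at 2 h, -0.09, -0.27 and -0.02 at 4 h, 0.87, 0.92 and 1.02 at 24 h, and 0.43, 0.77 and 0.73 at 48 h. All 6 late arrays lay above all 6 early ones, and the mean was 0.94 ± 0.08 at 24 h (1.92-fold, adjusted p = 5.2e-08) and 0.65 ± 0.19 at 48 h. The probe of the second span also rose, to 0.71 ± 0.02 at 24 h and 0.39 ± 0.10 at 48 h. The probe of the first span, which lies farther from the 3′ end of the gene, averaged 0.04 ± 0.13 at 24 h and 0.03 ± 0.12 at 48 h and was not called at any time.

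Lamb1, the laminin beta-1 chain, rose earlier than Lama5. Its ratios were 0.09, -0.01 and 0.14 at 2 h, 0.58, 0.53 and 0.63 at 4 h, 0.82, 0.79 and 0.84 at 24 h, and 0.17, 0.32 and 0.21 at 48 h. The 4 h and 24 h arrays stood above all 2 h and 48 h arrays. The rise was 0.58 ± 0.05 at 4 h (adjusted p = 1.2e-07) and 0.82 ± 0.02 at 24 h (1.76-fold, adjusted p = 2.5e-09), and the fall from 24 to 48 h was called (-0.59, adjusted p = 2.4e-05). With median centring the sign of Lamb1 at 4 and 48 h turned in the raw value (-0.18 and -0.37), but not relative to the median of all genes (0.08 at 48 h).

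Nid1 (nidogen-1, a bridge between laminin and collagen IV) rose to 0.32, 0.29 and 0.44 at 24 h, a mean of 0.35 ± 0.08 (adjusted p = 0.00026), which was 1.72 with Agilent's processed signals. It was dim: the forskolin channel was above background on 3 of 3 arrays at 24 h, against 1 of 3 in the reference channel. Its second probe was not called at any time and averaged -0.02 ± 0.04 at 24 h. Of the 6 laminin and nidogen genes kept of 11 on the array, 3 were called higher at 24 and at 48 h (Lama5, Lamb1 and Nid1), and 1 lower (Lamb3), where 24.0% and 28.9% of all genes were higher and lower at 24 h and 26.7% and 30.1% at 48 h. A second Lamb3 probe was called higher at 4 h (0.44) and 24 h (0.24), while the brighter one was called lower (-0.13 and -0.20). Lamc1, the gamma chain common to most laminins, was not called (-0.12 ± 0.13 at 24 h), nor was Lamc3 (-0.02 ± 0.09).

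Collagens were the largest class, with 20 genes kept of 32, and they did not move as one. At 24 h, 6 were called higher and 5 lower, and at 48 h, 6 higher and 6 lower, with a median of 0.03 at 24 h and -0.03 at 48 h. Of all genes, 24.0% were higher and 28.9% lower at 24 h, and 26.7% and 30.1% at 48 h. Relative to the median of all genes with median centring, 3 of the 5 lower calls at 24 h turned sign (Col11a2, Col4a4 and Col9a2). At 48 h, 2 of the 6 higher calls did (Col16a1 and Col4a1) and 4 of the 6 lower ones (Col11a1, Col4a4, Col4a5 and Col9a2). Col18a1 and Col7a1 rose most. Col18a1, a basement membrane collagen whose end fragment is endostatin, had 0.80, 0.91 and 0.96 at 24 h and 0.49, 0.71 and 0.81 at 48 h, after -0.48, -0.43 and -0.33 at 4 h. All late arrays lay above 0 and all 4 h arrays below it. The mean was 0.89 ± 0.08 at 24 h (1.85-fold, adjusted p = 3.5e-08), and its second probe agreed in sign at each time (0.67 ± 0.03 at 24 h). Col7a1, the anchoring fibril collagen of skin, had 0.66, 0.58 and 0.64 at 24 h and 0.59, 0.85 and 0.72 at 48 h, with 0.04 ± 0.19 at 2 h and 0.09 ± 0.16 at 4 h. Its mean was 0.63 ± 0.04 at 24 h (adjusted p = 5.6e-06), and 1.57 with Agilent's processed signals, where dim ratios are less compressed.

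Col5a2, a chain of the fibril collagen V, fell late. Its ratios were -0.44, -0.51 and -0.65 at 24 h and -0.49, -0.55 and -0.46 at 48 h, against -0.18, 0.01 and -0.12 at 4 h. The 24 h mean was -0.54 ± 0.11 (adjusted p = 6.1e-07), with the forskolin channel above background on 2 of 3 arrays, and -1.54 with Agilent's processed signals. All 3 Col5a2 probes fell at 24 h, with means of -0.54, -0.42 and -0.43. Col1a2, a chain of collagen I, had 0.07, 0.57 and 0.59 at 48 h, so that its call there (0.41 ± 0.30, adjusted p = 0.0011) rests on 2 of the 3 arrays. A second Col1a2 probe was also called higher at 48 h (0.29 ± 0.17, adjusted p = 0.00038). Its partner chain Col1a1 was called lower at 48 h on its brightest probe (-0.15 ± 0.12), while its second probe had 0.09 ± 0.07 and was not called. Col4a4 was called lower at 24 and 48 h, where its forskolin channel was not well above background on any of the 3 arrays of either time, and no size is given.

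Col4a1 and Col4a2, the main chains of collagen IV, lie head to head, and their start-site windows overlap. At 4 h both were called higher on their brightest probes, Col4a1 at 0.22 ± 0.16 and Col4a2 at 0.23 ± 0.12, of which the first turned sign relative to the median of all genes with median centring. A second Col4a1 probe at chr16:83143399-83143458 went the other way, at -0.25 ± 0.05 at 4 h and -0.55 ± 0.06 at 48 h, while the brighter probe at chr16:83031262-83031321 had 0.28 ± 0.15 at 48 h. Both lie on the plus strand of rn3, and the direction for Col4a1 is therefore not settled.

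**Figure D4:**
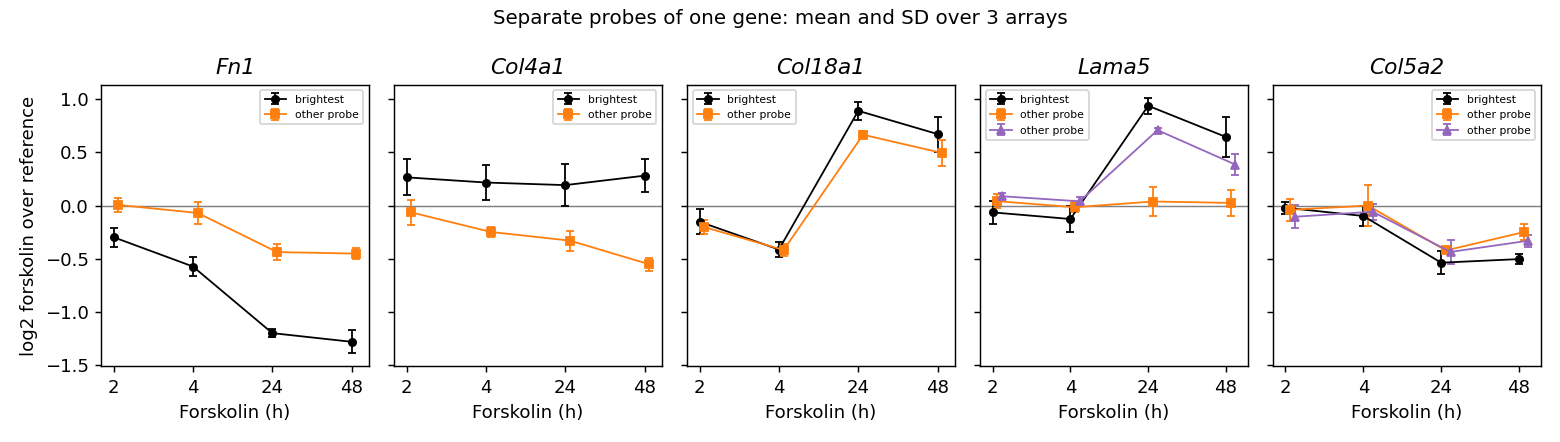
Mean log2 ratio of forskolin over reference with SD (3 arrays) for each kept probe of Fn1, Col4a1, Col18a1, Lama5 and Col5a2, by hours of forskolin. The probes agree in sign at 24 h for Fn1, Col18a1 and Col5a2, differ in sign for Col4a1, and for Lama5 include one probe that stays near 0.

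Promoters are shown for 4 genes given with values of single arrays that hold TGACG, the core of the cyclic AMP response element. The Col4a1 window shared with Col4a2 is also shown. The RefSeq table gave windows of 300 bases around the start for 43 of the 57 member genes (GRCr8), and TGACG was searched on both strands. It was found in 8 of the 43 (18.6%) and in 22.0% of 27457 promoters. Of the named genes, as defined under processing, 15 had a window and 4 held TGACG (26.7%). The other members with TGACG, Adamts3, Col4a5, Itgb1 and Lamb3, are not shown. The full palindrome TGACGTCA, which contains TGACG, was in 1 of the 43, Lamb3 (2.33%), and in 1.91% of all promoters. GGGCGG, the GC box, was in 29 of the 43 (67.4%) and in 34.9% of all promoters. The 43 windows are of genes that passed the filter on dim spots, whereas the 27457 were not filtered, so the sets differ in more than membership. These matches are of letters in a window, and no binding was measured.

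Lama5 lies on the minus strand at chr3:187695925-187696224, with the match 106 bases before the start. Col7a1 lies on the plus strand at chr8:118483114-118483413, with the match 148 bases before the start. Timp2 lies on the minus strand at chr10:104089165-104089464 (179 bases before) and Timp1 on the minus strand at chrX:3771073-3771372 (215 bases before). In these, capitals mark TGACG, or CGTCA where it lies on the other strand. The Col4a1 window lies on the plus strand at chr16:84885347-84885646, and capitals there mark the 176 bases it shares with the Col4a2 window. Each is written 5′ to 3′ on the strand of its gene.
Lama5: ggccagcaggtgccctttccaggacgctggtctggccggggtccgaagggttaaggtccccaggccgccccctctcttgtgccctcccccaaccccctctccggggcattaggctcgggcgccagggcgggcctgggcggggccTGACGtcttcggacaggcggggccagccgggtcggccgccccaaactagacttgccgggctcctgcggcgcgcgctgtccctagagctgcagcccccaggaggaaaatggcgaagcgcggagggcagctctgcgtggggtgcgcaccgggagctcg
Col7a1: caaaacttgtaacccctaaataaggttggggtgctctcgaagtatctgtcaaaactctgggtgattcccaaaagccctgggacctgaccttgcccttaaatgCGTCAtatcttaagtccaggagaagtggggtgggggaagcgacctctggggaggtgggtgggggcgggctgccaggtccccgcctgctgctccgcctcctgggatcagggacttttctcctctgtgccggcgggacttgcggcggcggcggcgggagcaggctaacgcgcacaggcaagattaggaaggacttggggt
Timp2: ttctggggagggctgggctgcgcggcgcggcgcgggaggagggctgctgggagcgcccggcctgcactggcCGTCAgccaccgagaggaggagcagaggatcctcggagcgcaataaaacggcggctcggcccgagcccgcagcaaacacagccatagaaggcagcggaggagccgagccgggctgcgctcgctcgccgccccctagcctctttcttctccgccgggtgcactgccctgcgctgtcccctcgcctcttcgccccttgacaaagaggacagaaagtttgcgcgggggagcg
Timp1: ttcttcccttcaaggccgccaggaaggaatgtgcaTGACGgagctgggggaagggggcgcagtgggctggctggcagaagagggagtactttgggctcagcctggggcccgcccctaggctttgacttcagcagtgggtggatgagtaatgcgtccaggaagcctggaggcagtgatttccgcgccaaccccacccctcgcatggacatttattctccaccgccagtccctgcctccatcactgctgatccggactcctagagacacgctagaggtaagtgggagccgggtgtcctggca
Col4a1: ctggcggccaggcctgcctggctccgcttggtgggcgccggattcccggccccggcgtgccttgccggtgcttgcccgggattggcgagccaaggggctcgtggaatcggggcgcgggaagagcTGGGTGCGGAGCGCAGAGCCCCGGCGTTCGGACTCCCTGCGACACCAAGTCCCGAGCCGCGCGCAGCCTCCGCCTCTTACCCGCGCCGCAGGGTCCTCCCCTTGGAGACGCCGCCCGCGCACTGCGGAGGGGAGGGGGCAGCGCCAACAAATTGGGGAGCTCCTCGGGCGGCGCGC

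The 4 genes shown with TGACG did not share a time course. Lama5, Col7a1 and Timp2 were called higher at 24 and 48 h and not at 2 or 4 h, a direction that Timp2 did not keep relative to the median of all genes with median centring. Timp1 was called lower at 4 h and higher at 24 h. Of the members with TGACG that are not shown, Itgb1 was called higher at 2 h (0.23) and 4 h (0.40) and not later. Its 2 h sign turned relative to the median of all genes with median centring. The brighter Lamb3 probe was called lower at 4, 24 and 48 h, and Adamts3 was not called. Col4a5 was called lower at 4 and 48 h, with its forskolin channel not well above background there.

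Among the receptors, Itgb4 and Itga1 rose most. Itgb4 encodes the beta-4 chain, which pairs with alpha-6 to bind laminin in hemidesmosomes. Its ratios were -0.18, -0.14 and -0.04 at 2 h, -0.43, -0.40 and -0.33 at 4 h, 1.02, 1.18 and 0.89 at 24 h, and 1.03, 1.12 and 1.11 at 48 h. The late arrays lay above 0 and all early ones below it. The mean was 1.03 ± 0.14 at 24 h (2.04-fold, adjusted p = 1.6e-09) and 1.09 ± 0.05 at 48 h (2.13-fold, adjusted p = 5.6e-10). Late minus early, it had the largest rise of the 57 genes (1.31, SE 0.05). Its probe lies at chr10:106131027-106131086 on the plus strand (rn3). Its partner Itga6 was called higher at 24 h on both of its probes, at 0.16 ± 0.10 on the brighter one (adjusted p = 0.014) and 0.42 ± 0.22 on the other (adjusted p = 0.00052). At 48 h they had 0.00 ± 0.07 and 0.14 ± 0.20, and neither was called.

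Itga1 encodes the alpha-1 chain, which pairs with beta-1 to bind collagens and laminin. It fell at 4 h and rose afterwards, with 0.07, 0.02 and 0.16 at 2 h, -0.58, -0.48 and -0.43 at 4 h, 0.38, 0.57 and 0.42 at 24 h, and 1.1, 1.31 and 1.39 at 48 h. The 4 times did not overlap. The mean was -0.50 ± 0.07 at 4 h (adjusted p = 7.8e-06) and 1.27 ± 0.15 at 48 h (2.41-fold, adjusted p = 3e-10), and the step from 24 to 48 h was called (0.81, adjusted p = 1.8e-05). In intensity, Itga1 read 306 to 345 in the forskolin channel at 4 h and 994 to 1198 at 48 h, against 434 to 484 in the reference channel on the 12 arrays.

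Itgb1, the beta-1 chain shared by most matrix integrins, was called higher at 4 h (0.40 ± 0.06) and had 0.06 ± 0.04 at 24 h and 0.01 ± 0.21 at 48 h. Itgav, the alpha-V chain of receptors for fibronectin and vitronectin, was called lower at 24 h (-0.21 ± 0.12) and 48 h (-0.44 ± 0.20). Itga7, a laminin receptor chain, was called lower at 4 h (-0.32 ± 0.07) and higher at 24 h (0.25 ± 0.05) and 48 h (0.19 ± 0.05), and these late calls turned sign relative to the median of all genes with median centring. Of 6 alpha chains kept of 13, 3 were called higher and 1 lower at 24 h (Itga1, Itga6 and Itga7, and Itgav), and of 3 beta chains kept of 7, 2 were higher (Itgb4 and Itgb7), where 24.0% of all genes were higher and 28.9% lower.

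**Figure D5:**
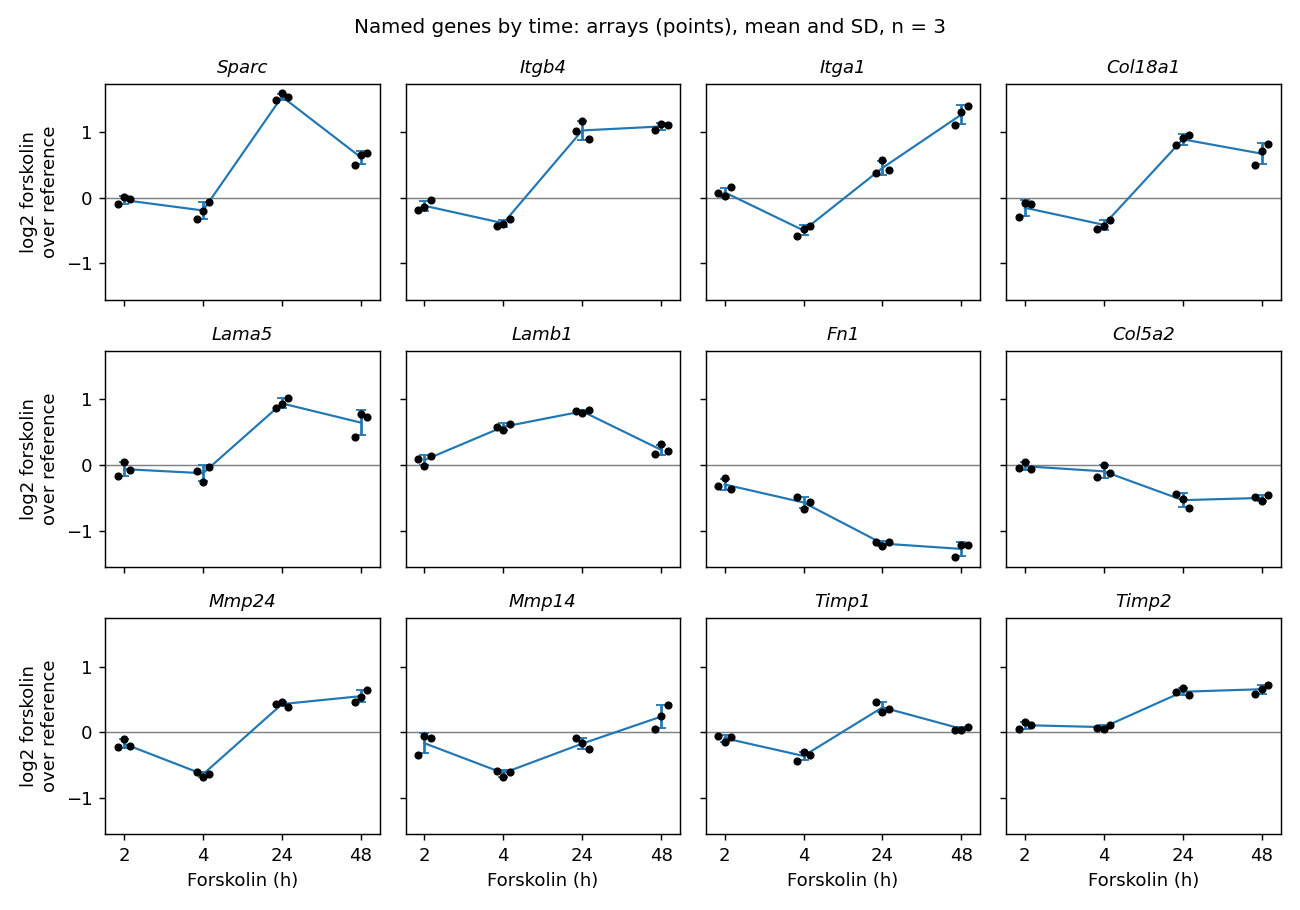
Log2 ratio of forskolin over reference by hours of forskolin for 12 genes: points are arrays, lines join means, bars are SD (n = 3). Itga1, Itgb4, Col18a1, Mmp24, Mmp14 and Timp1 lie below 0 at 4 h, and Fn1 and Col5a2 below 0 at 24 and 48 h.

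The proteases moved in both directions. Mmp14 and Mmp24 are membrane-bound metalloproteinases, and Mmp14 also activates pro-Mmp2. Mmp24 had -0.60, -0.68 and -0.64 at 4 h, the largest fall of the 57 genes there, and 0.43, 0.46 and 0.39 at 24 h and 0.46, 0.54 and 0.65 at 48 h. Its 4 h mean was -0.64 ± 0.04 (adjusted p = 5.7e-08), and the rise from 4 to 24 h was called (1.07, SE 0.06, 2.1-fold, adjusted p = 1.3e-08). With median centring its late ratios turned sign relative to the median of all genes (-0.15 at 24 h and -0.08 at 48 h), while the rise from 4 to 24 h did not. The files place its probe on another chromosome than the RefSeq list places the gene, so its identity is less certain.

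Mmp14 had -0.59, -0.68 and -0.60 at 4 h, -0.10, -0.17 and -0.26 at 24 h, and 0.06, 0.24 and 0.41 at 48 h. The 4 h arrays lay below all others, and the mean there was -0.62 ± 0.05 (adjusted p = 3.7e-06). Its 48 h call (0.24 ± 0.18, adjusted p = 0.0072) was lost without the third 48 h replicate (0.15), and its sign turned relative to the median of all genes with median centring (-0.04). Its 24 h call (-0.17 ± 0.08, adjusted p = 0.041) was lost without the second or the third 24 h replicate, without the third 4 h replicate and without the second 48 h replicate. It was also lost with offset 0 (adjusted p = 0.1), Agilent's processed signals (adjusted p = 0.093) and no filter on dim probes (adjusted p = 0.061). Mmp28 was called higher at 24 h (0.25 ± 0.04). Mmp2, a gelatinase, was called lower (-0.14 ± 0.07), a sign that turned relative to the median of all genes with median centring. Of 9 Mmp genes kept of 23, 4 were called lower and 0 higher at 4 h (Mmp14, Mmp16, Mmp23 and Mmp24), where 29.9% of all genes were lower and 19.4% higher. Mmp23 turned sign relative to the median with median centring. Late minus early, 5 were higher and 1 lower (Mmp16), where 26.1% of all genes were higher and 24.1% lower. Mmp13, Mmp14, Mmp23, Mmp24 and Mmp28 were the higher ones, with Mmp13 not above background in the reference channel at 24 or 48 h.

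Adamts13, the protease that cleaves von Willebrand factor, had -0.38, -0.28 and -0.22 at 4 h, 0.62, 0.69 and 0.54 at 24 h, and 0.76, 0.89 and 0.90 at 48 h. All late arrays lay above all early ones, and the mean was 0.62 ± 0.08 at 24 h (adjusted p = 3e-07) and 0.85 ± 0.08 at 48 h (1.8-fold, adjusted p = 7.7e-09). Adamts7, a protease of cartilage matrix, had 0.45, 0.72 and 0.41 at 24 h (0.53 ± 0.17, adjusted p = 3.5e-06) and 0.32 ± 0.07 at 48 h. Its 24 h value was 0.94 with Agilent's processed signals.

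Adamts9, a protease that cleaves versican and aggrecan, differed in time from the other 2. It had 0.69, 0.29 and 0.54 at 4 h, a mean of 0.51 ± 0.20 (adjusted p = 3.4e-05), which was 1.61 with Agilent's processed signals. At 24 h its ratios were -0.18, -0.11 and -0.21, with the forskolin channel not well above background on any array, and it was not called (adjusted p = 0.056). It was called lower there with a replicate block (adjusted p = 0.032), the authors' deposited values (0.049), no background subtraction (0.022), offset 0 (0.031) and Agilent's processed signals (-1.80, adjusted p = 0.0011), and in some fits without 1 array of another time. At 48 h Adamts9 was called lower in the main fit (-0.18), with the forskolin channel well above background on 1 of 3 arrays. That call was lost without the second or the third 48 h replicate, and with no filter on dim probes. Its sign turned relative to the median of all genes with median centring. Of 16 Adamts genes on the array 5 were kept, and Adamts3 and Adamts15 were between -0.16 and 0.01 at all times. Adamts15 was called lower at 24 h (-0.16 ± 0.02), and that sign turned relative to the median of all genes with median centring.

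Timp2 and Timp1 both encode inhibitors of metalloproteinases. Timp2 also takes part in the activation of pro-Mmp2 by Mmp14. Its ratios were 0.05, 0.16 and 0.11 at 2 h, 0.06, 0.05 and 0.12 at 4 h, 0.61, 0.67 and 0.56 at 24 h, and 0.58, 0.66 and 0.72 at 48 h. The late arrays lay above all early ones. The mean was 0.62 ± 0.05 at 24 h (1.53-fold, adjusted p = 2.9e-08) and 0.66 ± 0.07 at 48 h (1.57-fold, adjusted p = 9.9e-09). Relative to the median of all genes with median centring these became -0.096 at 24 h and -0.095 at 48 h, while its rise from 4 to 24 h (0.54, adjusted p = 5.9e-06) kept its sign. Timp2 was among the brightest members, reading 4882 to 8131 for forskolin RNA and 4720 to 5122 for reference RNA over the 12 arrays.

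Timp1 had -0.43, -0.31 and -0.35 at 4 h, 0.46, 0.31 and 0.36 at 24 h, and 0.03, 0.03 and 0.09 at 48 h. The 3 times did not overlap. The mean was -0.36 ± 0.07 at 4 h (adjusted p = 9e-06), 0.38 ± 0.08 at 24 h (adjusted p = 4.5e-06, and 0.61 with Agilent's processed signals) and 0.05 ± 0.03 at 48 h, where it was not called. The third Timp gene on the array, Timp3, did not pass the filter on dim spots, nor did Nid2.

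Binding partners that the rule takes in by name are not matrix genes or integrins. Itgb3bp, a nuclear protein also known as a centromere component, fell to -0.84, -0.93 and -1.01 at 24 h and -1.0, -0.94 and -0.89 at 48 h, against -0.49, -0.43 and -0.51 at 4 h and -0.29, -0.39 and -0.34 at 2 h. Its mean was -0.93 ± 0.08 at 24 h (1.9-fold lower, adjusted p = 6.3e-10). Col4a3bp (current symbol Cert1, a ceramide transfer protein) was called higher at 4 h (0.38 ± 0.08), and Itgb4bp (Eif6, a ribosome biogenesis factor) lower at 48 h (-0.35 ± 0.03). Of the 4 kept, 3 were lower at 24 h, where 28.9% of all genes were.

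Genes that make or bind matrix but fall outside the rule were taken from lists of related genes. For all of these, 24.0% of all genes were higher and 28.9% lower at 24 h, and 26.7% and 30.1% at 48 h, and a sign is said to turn where it did so relative to the median of all genes with median centring. Of 12 kept genes for collagen processing, 7 were called higher and 2 lower at 24 h, with a median of 0.22, against -0.02 over all genes. Of the 7, 3 turned sign (P4hb, Pcolce and Plod3). At 48 h, 9 were higher and 1 lower, and 6 of the 9 turned sign (Crtap, P4ha2, P4hb, Pcolce, Plod3 and Serpinh1). Bmp1, which trims procollagen, had 1.07 at 24 h, and P4ha3, a prolyl hydroxylase subunit, was lower at -0.51. Serpinh1, a collagen chaperone, had 0.79 at 24 h and 0.54 at 48 h, and the 48 h value turned sign. Of 19 kept proteoglycans, matricellular and elastic fibre proteins, 11 were higher and 4 lower at 24 h and at 48 h. At 24 h, 4 of the higher calls turned sign (Bgn, Efemp2, Fbln1 and Fbln2) and 2 of the lower (Eln and Fmod), and at 48 h, 3 of the higher (Efemp2, Fbln1 and Fbln2) and 1 of the lower (Ccn1). Ecm1, a secreted matrix glycoprotein, had 1.1 at 24 h and 1.37 at 48 h, and Bgn (biglycan) had 0.98 at 48 h. Ccn1, a matricellular protein, had 0.99 at 2 h and 0.70 at 4 h, and was not called at 24 h (-0.10).

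Of 15 kept genes of other matrix receptors, 7 were higher and 2 lower at 24 h and 10 higher and 3 lower at 48 h. Dag1 and Rpsa, higher at both times, turned sign, as did Cd9 (higher) at 48 h and Hmmr (lower) at 24 h. Cd151, a tetraspanin that partners laminin-binding integrins, had 1.31 at 24 h and 1.16 at 48 h, and Sdc1, a syndecan, was lower at -0.69 at 24 h. Of 18 kept focal adhesion genes, 10 were higher and 2 lower at 24 h, and 4 of the 10 turned sign (Actn4, Ilk, Parva and Ptk2). Fyn, a Src-family kinase, had 0.89 at 24 h, and Vcl (vinculin) was lower at -0.53. Ptk2, the focal adhesion kinase, was called lower at 4 h (-0.74) and higher at 48 h (0.65). Of 15 kept genes of the plasminogen system, Adam proteases and protease inhibitors, 5 were higher and 3 lower at 24 h, and 2 of the 5 turned sign (Adam15 and Bsg). Ctsl, a lysosomal cysteine protease, had 0.71 at 24 h and Adam8 was lower at -0.42.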

How the data were processed

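F11 cell RNA was measured on 12 two-channel rat oligonucleotide arrays. Mean spot intensity and local background intensity were deposited for each channel, made by Feature Extraction (release 9.5.1.1) on a design of build rn3, per the file headers. The authors' deposited log2 values, normalized by limma (version not given) per the submitters' processing notes, correlated at 0.997 to 0.999 with scanner ratios of red over green, so their sign was turned here. The p-values here are the fit's own.

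Intensities were corrected with normexp (offset 50) and loess-normalized within each array, with control spots at weight 0 and outlier spots left out. Spots of a probe were averaged. A probe was kept if well above background in a channel on all 3 arrays of a time. limma 3.58.1 (R 4.3.3, version 1.17.8 of data.table) fitted a mean per time to 20630 probes (8 residual degrees of freedom), with Benjamini-Hochberg adjustment, calls under 0.05, and the brightest probe per gene. Named genes were those called at 0.5 or more with 1 sign on 3 arrays, plus Fn1, Sparc, Nid1 and Timp genes. Of the member probes, 46 were named by accession, 110 by symbol and 3 by synonym of the GRCr8 RefSeq list. On simulated data for 20630 probes, 100 changes of 0.5 were put in at 24 h. Of these, 98% were recovered at 24 h and 89% between 24 and 4 h. The simulated noise was independent between arrays and few probes were changed, unlike here, so these shares do not measure recovery in these data. The members and lists were chosen with earlier results of these data known.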

Additional observations from a re-analysis of the deposited data

Results flagged for a closer look

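Differences between times that passed limma's adjusted threshold were marked for a closer look in the named genes. They are log2 differences, later minus earlier time, from the fit over 12 arrays with n = 3 per time.

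From 2 to 4 h, Adamts9 (0.55) and Lamb1 (0.51) rose. Itga1 (-0.58), Mmp24 (-0.47), Mmp14 (-0.46), Fn1 (-0.28), Timp1 (-0.27) and Itgb4 (-0.27) fell.

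From 4 to 24 h, the matrix proteins Sparc (1.73), Col18a1 (1.30), Lama5 (1.06), Col7a1 (0.54), Nid1 (0.45) and Lamb1 (0.24) rose, and Fn1 (-0.63) and Col5a2 (-0.44) fell. The integrins Itgb4 (1.41) and Itga1 (0.95) rose. The proteases Mmp24 (1.07), Adamts13 (0.91), Adamts7 (0.45) and Mmp14 (0.45) rose, as did the inhibitors Timp1 (0.74) and Timp2 (0.54). Itgb3bp (-0.45) fell. Adamts9 was called lower (-0.68 in the fit), but its forskolin channel was well above background on 0 of 3 arrays at 24 h, so the value is not the size of its fall.

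From 24 to 48 h, Itga1 (0.81) and Mmp14 (0.41) rose, and Sparc (-0.93), Lamb1 (-0.59) and Timp1 (-0.33) fell.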

How the results depend on the processing

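Counts of called members kept within 1.5 times of the reported ones with an offset of 0, Agilent's processed signals, the authors' deposited log2 values, no filter, a filter on both channels and averaged probes. With median centring they became 40 at 2 h (77.3% of all genes called), 0 for 4 minus 2 h (1.95%) and 17 for 24 minus 4 h (18.7%). They became 3 for 48 minus 24 h (1.51%) and 25 for late minus early (29.1%). Without background subtraction the count was 14 for 48 minus 24 h (16.8%). Leaving out 1 array gave 5 to 13 at 2 h, 22 to 30 at 4 h, 30 to 39 at 24 h, 28 to 36 at 48 h, 8 to 12, 27 to 30 and 9 to 10 for the successive steps and 35 to 39 for late minus early. Other than 17.3% at 2 h without the second 2 h replicate, the shares of all genes called in these fits are not given. The ranges are therefore not set against other genes. Values that reversed under median centring, before subtracting the median of all genes, were Itga1 (-0.84), Lamb1 (-0.56) and Timp2 (-1.15) at 2 h; Adamts7 (-0.50), Lamb1 (-0.18) and Timp2 (-1.14) at 4 h; Adamts13 (-0.072), Col18a1 (-0.16), Itga1 (-0.36), Mmp24 (-0.60), Timp1 (-0.17) and Timp2 (-0.54) at 24 h; and Adamts7 (-0.21), Col18a1 (-0.41), Lama5 (-0.25), Lamb1 (-0.37), Mmp14 (-0.50), Mmp24 (-0.53), Sparc (-0.51), Timp1 (-0.48) and Timp2 (-0.55) at 48 h. The cause was not tested. Replicate number is the slide: same-numbered arrays correlated at 0.06 to 0.48 in their deviations, and 8 of 12 best with their own number. A replicate block called 15, 31, 41 and 39 members at 2, 4, 24 and 48 h and changed no count by over 1.5 times. The shares of all genes called with this block are not given. With offset 50 dim ratios are compressed: with processed signals Nid1 at 24 h was 1.72. Calls near 0.2, such as Sparc at 4 h, Nid1 at 48 h and Mmp24 at 2 h, were lost when 1 array was left out.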

Other observations

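Versican, listed on the array as Cspg2, lay outside the rule by name. Its brighter probe had log2 ratios of -0.38, -0.67, -0.35 and 0.06 at 2, 4, 24 and 48 h, with limma adjusted p = 0.0014, 3e-06, 0.00076 and 0.5. Its second probe had -0.05, -0.02, 0.13 and 0.15, so the 2 probes differed. The laminin chain Lama4 and the integrin chain Itgb5 also lay outside by name, and their kept probes were between -0.12 and 0.13 at all times.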
